A study of Homo sapiens with 3 samples.

Results

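The histone mRNAs among the RNAs bound by inactive DIS3L2 are described here by histone type. DIS3L2 is an exoribonuclease that degrades RNAs with a 3′ tail of uridines that the genome does not encode, and its D391N mutant binds such RNAs but cannot degrade them. RNAs crosslinked to FLAG-tagged DIS3L2 D391N, overexpressed in human embryonic kidney cells in culture, were sequenced in 3 replicate CLIP libraries. The labels call the cells HEK293, and the methods name the line HEK293T-Rex. The libraries form 1 group with no control group, and all share the induction of the stably integrated, inducible construct before harvest. Whether the line is 1 clone is not given in the sources used here. Neither the cell line nor the overexpression can be checked in a list of tailed windows. The table lists 50 nt windows of the genome that passed a selection for uridylation, each with its unique reads and its uridylated (U+) reads summed over the 3 libraries. Members are the windows of the mRNA class whose symbol starts with HIST, H1F, H2AF, H2BF or H3F. They are 47 windows in 40 genes, out of 1136 mRNA windows and 1533 windows in all.

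Most histone genes are replication-dependent. They lie in clusters, have no introns, are transcribed in S phase, and end in a conserved stem-loop in place of a poly(A) tail. The stem-loop-binding protein SLBP holds this hairpin during 3′ end cleavage, translation and decay, and the decay of histone mRNAs at the end of S phase is known to start with short uridine tails at this end. H2A, H2B, H3 and H4 form the nucleosome core, and H1 is the linker histone that sits on the DNA between nucleosomes. Replication-independent variants such as H3.3 are instead encoded by spliced and polyadenylated mRNAs. Because unique reads and U+ reads had been summed over libraries, no value below has a replicate SD, and n is 1 pooled value per window. Intervals are by Wilson's method at 95% and hold counting error alone, since reads can be PCR copies of 1 molecule.

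The histone 3′ stem-loop was looked for as the arm GGNNNT, the loop TNTN and the arm ANNNCC in direct succession, with all 6 pairs of the stem formed (G-U allowed), on the strand of the gene within 500 nt after its stop codon. It was found in 39 of the 40 genes. Only H3F3B had none. The motif occurred, at least in part, in 34 of the 47 histone windows (72.3%) and in 0 of the 1089 other mRNA windows and 0 of the 397 windows of other classes, on the strand of the window. On the opposite strand it was in 0 windows of any kind, which the loop letters set, since the 2 arms read the same on both strands. With any loop of 4 bases the pattern was on the opposite strand in 32 of the 47 histone windows (68.1%) and 1 of the 1089 other mRNA windows, and on the window's own strand in 34 histone and 2 other mRNA windows. The 39 genes held 9 forms of the hairpin, and 1 gene of each form is shown because most of the listed windows, though not all, hold at least part of the hairpin. Each run covers the hairpin, in capitals, with 5 nt before and 9 nt after it, as DNA of the gene's strand from GRCh37/hg19. The positions are chr6:26031816-26031845 (minus strand) for HIST1H3B, chr6:26027120-26027149 (minus) for HIST1H4B, chr6:27100091-27100120 (minus) for HIST1H2BJ, chr1:149804591-149804620 (plus) for HIST2H4A, chr11:118965599-118965628 (minus) for H2AFX, chr6:26225819-26225848 (plus) for HIST1H3E, chr6:27101289-27101318 (plus) for HIST1H2AG, chr1:149858936-149858965 (plus) for HIST2H2AC and chr6:27805654-27805683 (minus) for HIST1H2AK.
HIST1H3B: ccaaaGGCTCTTTTCAGAGCCacccactta
HIST1H4B: ccaatGGCCCTTTTCAGGGCCgcccactcc
HIST1H2BJ: ctaacGGCTCTTTTAAGAGCCacccatgtt
HIST2H4A: ccaaaGGCCCTTTTTAGGGCCgaccacttg
H2AFX: acaaaGGCCCTTTTAAGGGCCaccaccgcc
HIST1H3E: ccaaaGGCTCTTCTCAGAGCCaaccacttt
HIST1H2AG: ccaacGGCTCTTTTCAGGGCCacccacgtc
HIST2H2AC: ccaaaGGCTCTTTTTAGAGCCacccaagtt
HIST1H2AK: aaaaaGGTTCTTTTCAGAGCCacctacttt

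The form shown for HIST1H3B was the most common, in 21 genes of types H1, H2A, H2B and H3 and in no H4 gene. The form of HIST1H4B was in 7 genes, all of them H4, and that of HIST2H4A in the remaining 2 H4 genes. The form of HIST1H2BJ, with the loop TTTA, was in 4 genes (HIST1H2BC, HIST1H2BD, HIST1H2BJ and HIST2H2AB). The other 5 forms were in 1 gene each. HIST1H2AG and HIST1H2AK had a G-U pair in the stem. The U+ fraction did not separate the common forms: the 23 windows of genes with the most common hairpin ran from 19.9 to 89.7%, and the 8 windows of genes with the HIST1H4B form ran from 14.5 to 76.9%. These ranges also take in windows that do not hold the hairpin, such as that of HIST1H4H (14.5%), so form and window position are mixed.

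All 5 histone types were bound. The annotation held 69 protein-coding histone genes with a hairpin, of which 39 (56.5%) had a listed window. By type these were 3 of 6 H1 genes, 13 of 18 H2A genes, 7 of 16 H2B genes, 7 of 15 H3 genes and 9 of 14 H4 genes. Of the 18 histone genes without a hairpin, such as the genes of the H2A.Z and macroH2A variants, 1 had a window, H3F3B. A further 3 histone genes were not found in the annotation. Listing depends on the depth of a window as well as on its tails, and whether an unlisted gene carried tails is not known from this table. The share of all annotated genes with a listed window was not computed. The 39 of 69 and the 1 of 18 can therefore not be read as many or few.

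The histone windows held 60016 unique and 26836 uridylated reads. The share of a window's unique reads that were uridylated, called the U+ fraction, ran from 14.5 to 92.9% with a median of 53.6% and quartiles of 44.5 and 68.6%. The other 1089 mRNA windows had a median of 70.6% with quartiles of 59.3 and 80.0%. Of the 47 windows, 21 (44.7%) had an interval wholly above 50%, where 67.3% of all 1533 windows and 70.0% of the other mRNA windows did. A further 13 (27.7%) had an interval wholly below 50%, against 9.07% of all windows and 5.23% of the other mRNA windows. The remaining 13 spanned 50%. The median depth was 403 unique reads in histone windows and 60 in the other mRNA windows. A shallow window needs a higher U+ fraction to be listed and has a wider interval, so it can less often lie wholly below 50%. The shares above and below 50% thus do not compare windows of like depth, and the part of the selection in them was not tested. Across the 47 windows, depth on a log10 scale correlated with the U+ fraction at a rho of -0.43 (Spearman) and an r of -0.43 (Pearson). This is a description over windows of the same pooled libraries, and the part of depth in the lower fractions was not tested.

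**Figure D1:**
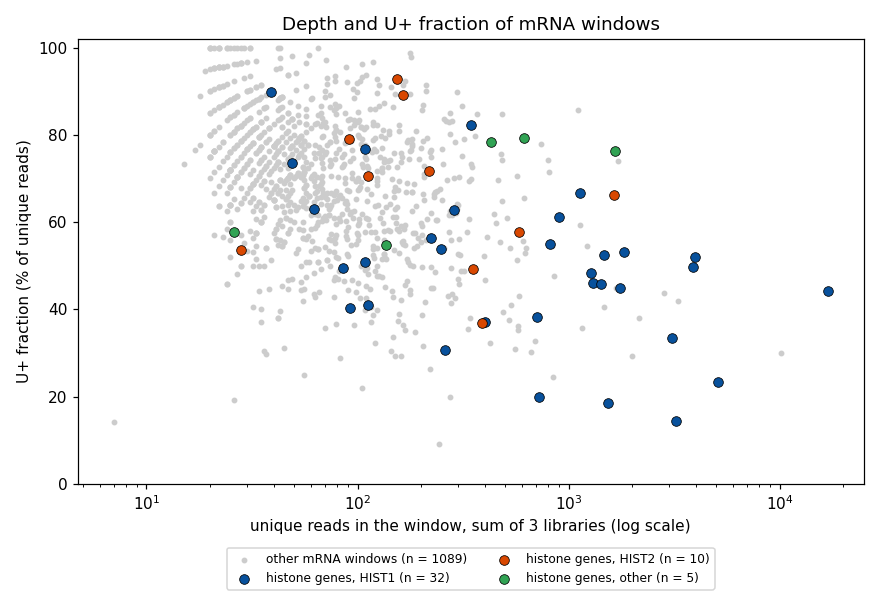
Unique reads of each mRNA window (x axis, log scale, summed over 3 libraries) against its U+ fraction in percent (y axis), with 32 HIST1, 10 HIST2 and 5 other histone windows in colour over 1089 other mRNA windows in grey. The deepest histone window, HIST1H3B, has 16885 unique reads and 44.1% U+, and the lowest, HIST1H4H, has 14.5% at 3209 reads.

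By their midpoints, 32 of the 47 windows lay in an annotated 3′ UTR, 5 in coding sequence, 5 just downstream of the annotated end, 4 in a 5′ UTR, and 1, that of HIST1H2AC, in an intron of the listed transcript, although it held the start of the hairpin.

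A few windows held most of the reads. HIST1H3B, a core histone H3 gene (ENSG00000124693), alone held 27.8% of the uridylated reads of histone mRNAs, and the 5 windows with the most held 51.8%. Its window, chr6:26031800-26031849 on the minus strand in the 3′ UTR, contained the whole hairpin and 25 nt past it, and 7454 of its 16885 unique reads were uridylated, which is 44.1% (interval 43.4 to 44.9%). Next came HIST1H2BJ with 2054 uridylated among 3958 unique reads (51.9%), HIST1H2AG with 1937 among 3896 (49.7%), H3F3B with 1268 among 1661 (76.3%), HIST1H2BD with 1189 among 5105 (23.3%) and HIST2H2BE with 1081 among 1635 (66.1%). Without HIST1H3B the pooled U+ fraction of histone mRNAs was 44.9%, against 44.7% with it.

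The 3 linker histone H1 windows had a median of 53.2%. HIST1H1E had 973 uridylated among 1830 unique reads (53.2%) and HIST1H1C 769 among 1464 (52.5%), with overlapping intervals, of which that of HIST1H1C spanned 50%. HIST1H1D had 35 among 39, or 89.7% (interval 76.4 to 95.9%), apart from both. Its window began inside the hairpin and held only its last 5 bases, whereas the other H1 windows held all of it.

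The 16 H2A windows lay in 13 genes and had a median of 49.6%, with a range from 18.6 to 89.0%. The highest was HIST2H2AA3 with 146 uridylated among 164 unique reads (89.0%), followed by HIST3H2A with 488 among 616 (79.2%) and H2AFX with 335 among 428 (78.3%). H2AFX encodes H2A.X, which is phosphorylated at DNA breaks, and its gene is known to give both stem-loop and polyadenylated mRNA. HIST3H2A is a single H2A gene outside the large clusters. HIST1H2AK gave the lowest H2A value, 284 among 1528 in one window (18.6%) and 1033 among 3085 in the other (33.5%), and its hairpin form was in no other member. HIST1H2AI had 145 among 727 (19.9%) in the window of its hairpin. The window of HIST1H2AK with 33.5%, that of HIST1H2AI and those of H2AFX and HIST3H2A all held the whole hairpin, and the intervals of the lower pair (up to 23.0 and 35.2%) lay well apart from those of the higher pair (from 74.1 and 75.8%). HIST1H2AC had 751 among 1128 (66.6%), HIST2H2AC 338 among 585 (57.8%), HIST1H2AB 599 among 1302 (46.0%) and HIST2H2AB 173 among 351 (49.3%). HIST1H2AE with 42 of 85 (49.4%) and HIST1H2AM with 37 of 92 (40.2%) were shallow and spanned 50%. The windows of HIST2H2AC and HIST2H2AB, which end towards each other on opposite strands, were 50 nt apart, and their intervals overlapped.

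The 9 H2B windows lay in 7 genes and had a median of 48.3%, with a range from 23.3 to 82.3%. The 4 that held the whole hairpin ran from HIST1H2BL with 150 uridylated among 403 unique reads (37.2%) through HIST1H2BN with 46 among 112 (41.1%) and HIST1H2BC with 617 among 1278 (48.3%) to HIST1H2BJ (51.9%), and the intervals of HIST1H2BL and HIST1H2BJ did not overlap. HIST1H2BO, with 180 among 287 (62.7%), and HIST2H2BE (66.1%) were above these. HIST2H2BE and the highest window, in HIST1H2BC, covered the 3′ side of the hairpin or the bases past it.

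The 9 H3 windows lay in 8 genes and had a median of 56.3%, with a range from 30.8 to 76.3%. The highest was H3F3B, with 1268 uridylated among 1661 unique reads, or 76.3% (interval 74.2 to 78.3%). H3F3B encodes the replication-independent variant H3.3. Its window, chr17:73775000-73775049 on the minus strand, lay in exon 3 of the 4 exons of the listed transcript. The window had 45 of its 50 nt in that exon and its midpoint in coding sequence. That midpoint lay 6542.5 nt of genome after the start of this transcript, and its place in other transcripts of the gene was not examined. A near-identical sequence occurs at 1 other place, on chromosome 12. Among replication-dependent H3 genes, HIST2H3A and HIST2H3C had 71.7 and 70.5% in windows with the whole hairpin, HIST1H3F had 39 among 62 (62.9%), HIST1H3E 126 among 224 (56.3%), HIST1H3H 653 among 1426 (45.8%) and HIST1H3B 44.1%. HIST1H3A was lowest, with 80 among 260 (30.8%), in a window that ended before the hairpin.

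The 10 H4 windows lay in 9 genes, with a median of 56.4% and the widest range of the 5 types, from 14.5 to 92.9%. HIST1H4H gave the lowest value of all members, 465 uridylated among 3209 unique reads (interval 13.3 to 15.8%), and HIST2H4B the highest, 143 among 154 (interval 87.7 to 96.0%). Between them were HIST1H4B with 785 among 1747 (44.9%), HIST1H4C with 55 among 108 (50.9%), HIST1H4E with 449 among 816 (55.0%), HIST1H4A with 552 among 904 (61.1%), HIST1H4D with 83 among 108 (76.9%) and HIST2H4A with 72 among 91 (79.1%). Pooled over reads the H4 windows had a U+ fraction of 36.9%, and 54.5% without HIST1H4H, so that 1 window set the pooled value.

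The ranges of all 5 types overlapped. Their medians lay between 48.3% (H2B) and 56.4% (H4), a spread smaller than the range within H2A, H2B, H3 or H4 alone. The order of the types was not stable. With pooled reads H1 was highest (53.3%) and H4 lowest (36.9%), and among the windows with the whole hairpin H3 was highest (median 62.9% of 5 windows) and H2B lowest (44.7% of 4). No test was run between types, because windows are not replicates of a type.

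**Figure D2:**
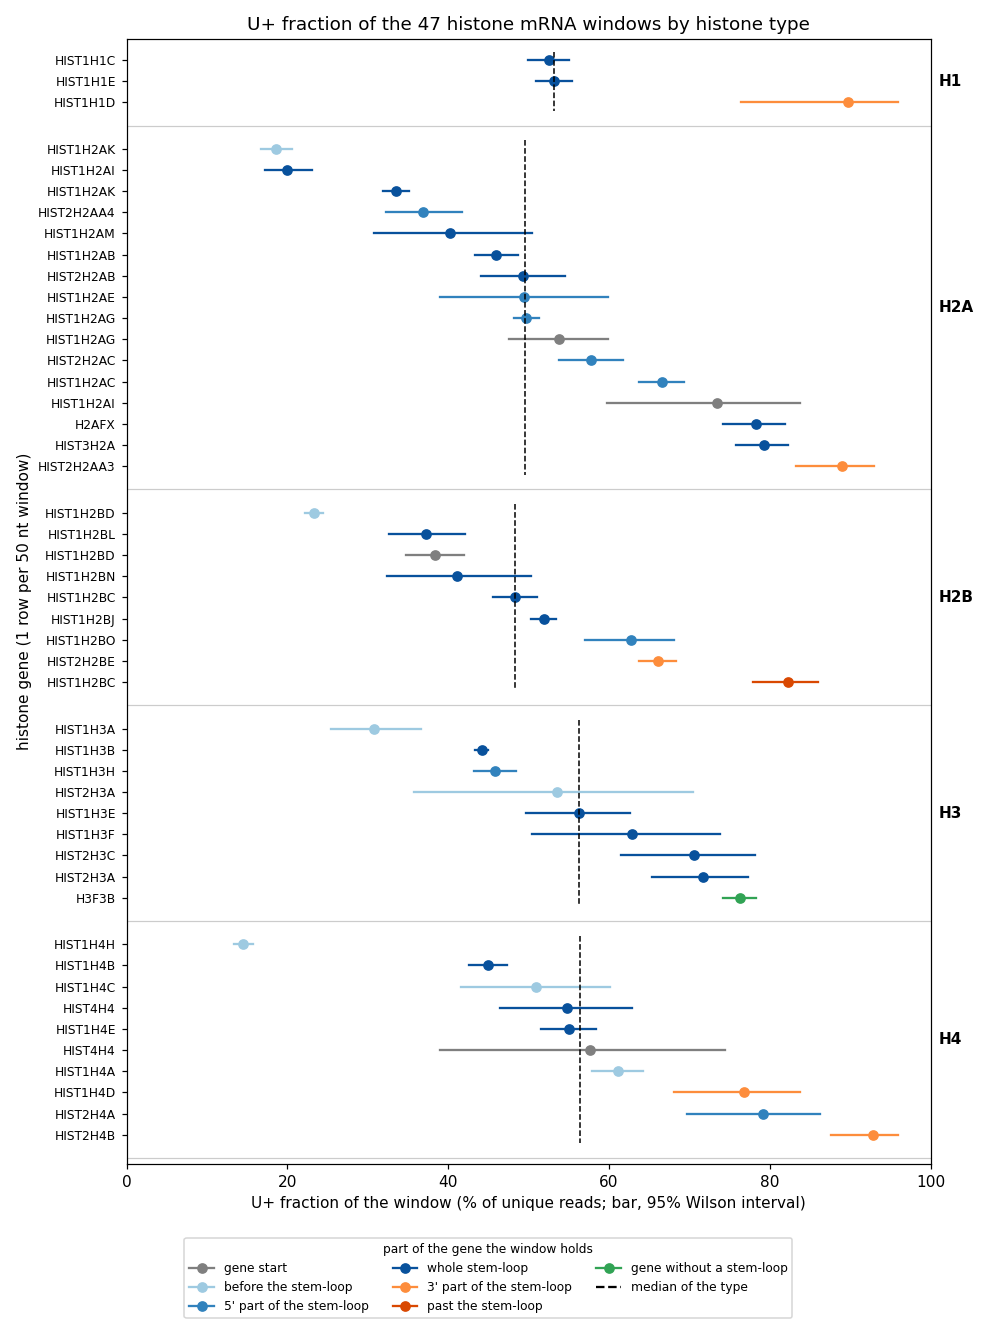
U+ fraction in percent (x axis) of each of the 47 windows, 1 row per window and grouped by histone type, with 95% Wilson intervals as bars and the median of each type as a dashed line. Colours give the part of the gene in the window. The 5 types overlap, and windows with the 3′ part of the hairpin or past it lie on the right, between 66.1 and 92.9%.

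By gene cluster, the 32 HIST1 windows of chromosome 6 had a median of 49.6%, the 10 HIST2 windows of chromosome 1 had 68.3%, and the 5 windows of the other genes (HIST3H2A, HIST4H4, H2AFX and H3F3B) had 76.3%. Intervals lay wholly above 50% in 11 of the HIST1, 7 of the HIST2 and 3 of the other windows, and wholly below it in 12, 1 and 0. Wholly above it were 67.3% of all windows and 70.0% of the mRNA windows outside histone genes, and wholly below it 9.07 and 5.23%. As said above, these shares are not at like depth. The median of those mRNA windows was 70.6%, so the HIST2 median was near it and the HIST1 median lower. The same order of the 3 medians was seen where the window held the whole hairpin, with 46.0% in 15 HIST1, 70.5% in 3 HIST2 and 78.3% in 3 other windows. Of these 3 HIST2 windows, however, those of HIST2H3A (71.7%) and HIST2H3C (70.5%) cover the same duplicated stretch, and the remaining one, HIST2H2AB, had 49.3%, near the HIST1 median. Median depth was 771.5 unique reads in HIST1, 191.5 in HIST2 and 428 in the others. The HIST2 median fell to 57.8%, over 3 windows, without the duplicated genes of this cluster. The difference between clusters was not tested.

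Windows were also described by the position of the 50 nt grid relative to the hairpin. Over the 34 windows that held at least 1 base of it, the distance from its last base to the end of the window and the U+ fraction were only weakly related (Spearman rho 0.18, a description). Classes were set after the values had been seen, by how much of the hairpin a window held, and carry no test. The 7 windows that ended before the hairpin had a median of 30.8%, the 8 with its 5′ part 53.7%, the 21 with all of it 51.9%, and the 6 that began inside it or just after it 85.7%, so the medians did not rise evenly from 5′ to 3′. The 6 were HIST2H4B (92.9%), HIST1H1D (89.7%), HIST2H2AA3 (89.0%), the second HIST1H2BC window (82.3%), HIST1H4D (76.9%) and HIST2H2BE (66.1%). Of all windows 67.3%, and of the mRNA windows outside histone genes 70.0%, had intervals wholly above 50%, with 9.07 and 5.23% wholly below it. Here too the shares are not at like depth. All 6 intervals of these histone windows were wholly above 50%, as were 8 of the 21 intervals of windows with the whole hairpin. The ranges nevertheless overlapped, since windows with the whole hairpin reached 79.2% in HIST3H2A. The 6 windows had a median depth of 159 unique reads, where those with the whole hairpin had 616, and the part of depth was not tested. Their 5 members with at least 100 reads had a median of 82.3%. Without the duplicated HIST2 genes, whose reads cannot be assigned to 1 copy, 4 of the 6 were left, with a median of 79.6%. Of the 7 windows that ended before the hairpin, HIST1H4H (14.5%), HIST1H2AK (18.6%), HIST1H2BD (23.3%) and HIST1H3A (30.8%) had intervals below 50%, HIST1H4A (61.1%) above it, and HIST1H4C (50.9%) and HIST2H3A (53.6%) spanned it. How a read that lies across several windows was counted is not given in the sources used here.

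**Figure D3:**
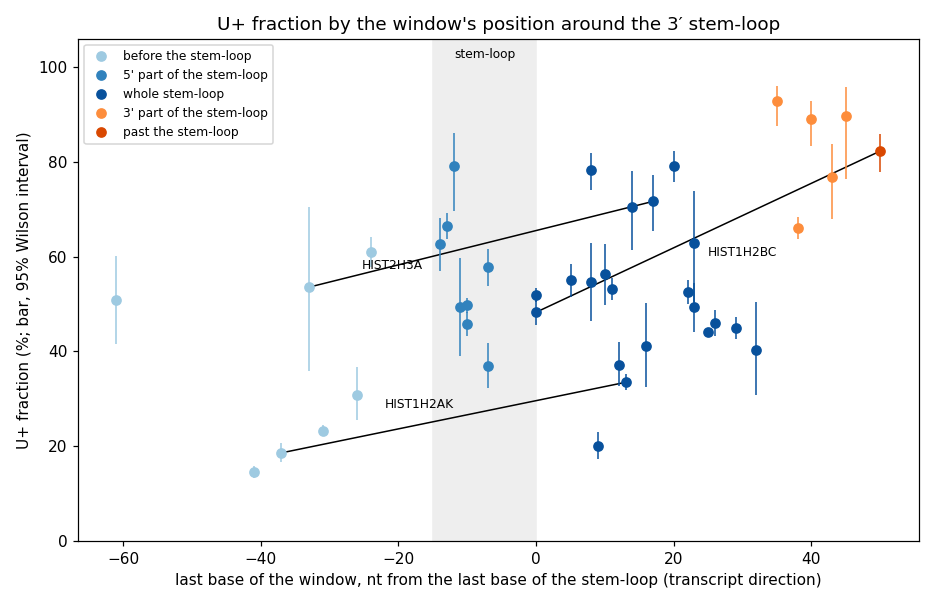
U+ fraction in percent (y axis, bars are 95% Wilson intervals) against the distance in nt from the last base of the hairpin to the last base of the window (x axis, transcript direction; shaded, the hairpin), without the gene start windows and H3F3B. Lines join the adjoining windows of HIST1H2AK, HIST1H2BC and HIST2H3A, each of which rises from the 5′ to the 3′ window, and the 6 windows on the right lie between 66.1 and 92.9%.

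Genes with more than 1 window allowed windows to be compared within a gene. These windows are among those whose values had been seen when the position classes were set. The pairs are therefore not independent of that pattern and do not serve as a test of it. In 7 genes, 2 windows were listed, and 3 further pairs came from the duplicated HIST2 genes. The 10 pairs were compared by two-sided Fisher's exact tests of uridylated against other reads, adjusted by Benjamini-Hochberg over the 10, of which 6 passed an adjusted 0.05. These tests compare the reads of pooled libraries and not conditions. They take reads as independent, although reads can be PCR copies and a read across 2 adjoining windows may have been counted in both. Their p-values are therefore likely too small. In all 3 genes with adjoining windows the 3′ window had the higher fraction. In HIST1H2BC, the window with the whole hairpin (chr6:26123700-26123749) had 617 uridylated among 1278 unique reads and the window just past it (chr6:26123650-26123699) 284 among 345, a difference of 34.0 percentage points (interval 28.9 to 38.6; exact test, adjusted p = 5.02e-31). In HIST1H2AK, the window before the hairpin (chr6:27805700-27805749) had 18.6% and the one with it (chr6:27805650-27805699) 33.5%, a difference of 14.9 points (interval 12.3 to 17.4; exact test, adjusted p = 1.32e-26). In HIST2H3A, with 15 among 28 and 157 among 219, the difference of 18.1 points (interval 0.08 to 36.7) did not pass (exact test, adjusted p = 0.112).

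In the other 4 genes a window at the gene start was listed beside one near the 3′ end. Here the window at the start had the higher fraction in each of the 4, and the difference passed in 2. The start window was also the shallower of each pair, with 49 against 727 unique reads in HIST1H2AI and 710 against 5105 in HIST1H2BD. To be listed, a shallow window needs a higher U+ fraction than a deep one, so the shared direction is not independent of the selection. The exact tests do not account for this, and the part of the selection was not tested. HIST1H2AI had 36 uridylated among 49 unique reads at the start (73.5%) and 19.9% at the hairpin, a difference of -53.5 points (interval -64.2 to -39.5; exact test, adjusted p = 3.13e-14). HIST1H2BD had 272 among 710 at the start (38.3%) and 23.3% around the stop codon, 31 nt before the last base of the hairpin, with an interval of the difference from -18.8 to -11.3 points (exact test, adjusted p = 2.77e-16). HIST1H2AG had 134 among 249 (53.8%) and 49.7%, and the difference of -4.10 points had an interval from -10.4 to 2.30 (exact test, adjusted p = 0.269). HIST4H4 had 15 among 26 (57.7%) and 75 among 137 (54.7%), with an interval of the difference from -21.7 to 17.5 (exact test, adjusted p = 0.898). The midpoints of these 4 windows lay 0.5 to 40.5 nt after the annotated start of the transcript.

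The duplicated part of the HIST2 cluster holds H2A, H3 and H4 genes in copies. The 7 windows of HIST2H2AA3, HIST2H2AA4, HIST2H3A, HIST2H3C, HIST2H4A and HIST2H4B each occurred without a difference at 1 other place, at the paired gene, so that their reads cannot be assigned to 1 copy with certainty although the authors counted unique reads. Outside these genes, no histone window other than that of H3F3B had a near-identical copy. The window of HIST2H3A with the whole hairpin and that of HIST2H3C cover the same stretch but for 3 nt, and their fractions of 71.7% (157 of 219) and 70.5% (79 of 112) gave a difference of -1.15 points, with an interval from -11.7 to 8.76 (exact test, adjusted p = 0.898). In the other pairs the listed windows cover neighbouring stretches of the repeated sequence, with 3 nt in common. HIST2H2AA4, with the 5′ part of the hairpin, had 143 uridylated among 388 unique reads (36.9%), and HIST2H2AA3, with its 3′ part, had 89.0%, a difference (HIST2H2AA4 less HIST2H2AA3) of -52.2 points (interval -58.2 to -44.6; exact test, adjusted p = 5.02e-31). HIST2H4A, with the 5′ part, had 79.1% and HIST2H4B, with the 3′ part, 92.9%, a difference of 13.7 points (interval 4.95 to 23.7; exact test, adjusted p = 0.00373). In both, as in the adjoining windows of 1 gene, the stretch nearer the 3′ end had the higher fraction. It was the shallower one in HIST1H2BC (345 against 1278 unique reads) and in HIST2H2AA3 (164 against 388). There the direction is not independent of the selection, and the part of the selection was not tested. In HIST1H2AK, HIST2H3A and HIST2H4B it was the deeper one. All these windows had been seen when the position classes were set.

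**Figure D4:**
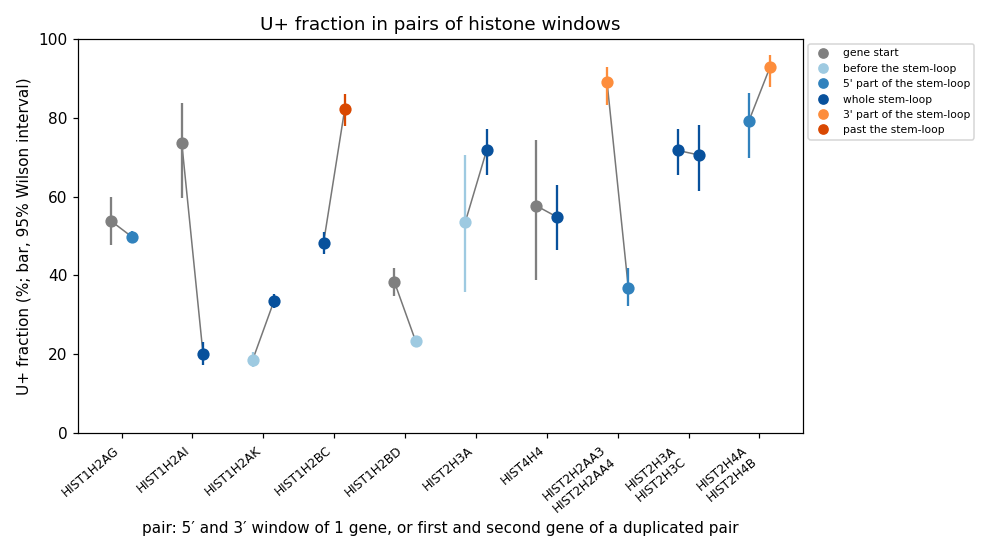
U+ fraction in percent (y axis, bars are 95% Wilson intervals) of the 10 pairs of windows compared. The left point of a gene is its 5′ window and the right one its 3′ window, and in the last 3 pairs the points are the first and the second gene named. HIST1H2BC (48.3 and 82.3%), HIST1H2AI (73.5 and 19.9%) and the HIST2H2AA genes (89.0 and 36.9%) lie farthest apart.

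Genes that act on histone mRNAs were looked up as a list of 31, covering SLBP, the U7 snRNP and cleavage factors, uridyltransferases and decay enzymes. Of these, 3 had a listed window, all in the mRNA class. The share of all annotated genes with a listed window was not computed, so the 3 cannot be read as many or few. SLBP, which binds the hairpin, had 91 uridylated among 152 unique reads (59.9%). UPF1, a helicase needed for histone mRNA decay, had 2 adjoining windows with 39 of 55 (70.9%) and 72 of 104 (69.2%). LSM4, a subunit of the Lsm ring that binds the tailed end, had 33 of 47 (70.2%). All 4 windows lay within the quartiles of the other mRNA windows.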

How the data were processed

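CLIP libraries of HEK293T-Rex cells (HEK293 in the labels) induced to overexpress DIS3L2 D391N (3 replicates, 1 group) were mapped by the authors to GRCh37/hg19 with Segemehl, and unmapped reads again after trimming of 3′ T runs. Subread is named in the submitters' processing notes, with no role given. Unique reads with at least 4 untemplated 3′ T were called uridylated. Windows of 50 nt were kept, per the methods, with at least 20 reads and a posterior of 0.95 or more for a frequency over 0.25, although 11 of the 1533 windows have fewer reads, down to 7 (histone windows have 26 or more). The authors deposited raw counts of unique and uridylated reads per window, summed over libraries, so neither depth per library nor leaving out a library could be examined.

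From these counts, U+ fractions with 95% Wilson intervals and two-sided Fisher's exact tests were computed (scipy 1.17.1), after the code had been tested on simulated data. Of the pooled counts, 4 histone windows (HIST1H4H, HIST1H2AK, HIST1H2AI and HIST1H2BD) had a fraction under 25% and a recomputed posterior below 0.95. The recomputed posterior is that of the summed counts, whereas the authors multiplied the posteriors of the 3 libraries. How these 4 windows passed is not known, and the summed counts may not be those that the selection used. Selection by U+ fraction truncates low values. Positions came from GENCODE release 44 mapped to GRCh37, using the listed transcript for 32 windows and the gene matched by identifier or older symbol (RefSeq names) for 15. Window starts were read as 1-based. Copies are other places with at least 45 nt and at most 2 differences (blastn 2.17.0). Named windows were, per type, the 3 with the most uridylated reads and both extremes, plus genes with 2 windows, the duplicated HIST2 genes, H2AFX, H3F3B, windows without a hairpin, hairpin variants and listed pathway genes; the remaining members are named outside this rule, after their values were seen, so that each is accounted for. Members, lists and tests were chosen with earlier results of these data known.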

Additional observations from a re-analysis of the deposited data

Results flagged for a closer look

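One window named for a histone gene was outside the mRNA class and entered no comparison. HIST2H2BA (ENSG00000223345) is listed as lncRNA, on chromosome 1, plus strand, from 120906400 to 120906449. Of its 85 unique reads 20 were uridylated, or 23.5% (interval 15.8 to 33.6%). It is given here because it lies in data that the comparisons leave out and exceeds the limit of 3 counts that a count of 0 would allow.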

How the results depend on the processing

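Medians by type, cluster and stem-loop were recomputed under the alternatives. Under a depth limit of 100 reads, with only the deepest window of each gene, or with a pooled posterior of at least 0.95, the 12 values stayed within the counting interval of their median window or, for counts, within 1.5 times. That interval is wide where the median window is shallow: for windows without the stem-loop it is HIST2H3A with 28 reads, and at 100 reads their median was 44.6% in place of 53.6%, while that of windows with it was 53.2% in place of 54.0%. With window starts read as 0-based these medians were 52.2 and 54.7%, and a relaxed loop left both as they were. Pooled reads moved H2B to 42.5%, H3 to 47.3%, H4 to 36.9%, HIST1 to 41.8%, windows with the stem-loop to 48.4% and windows without it to 32.8%. Leaving out windows with near-identical copies moved H3 to 45.8%, HIST2 to 57.8% and the other genes to 68.0%. Keeping only windows with the whole stem-loop, chosen after seeing the data, moved H2B to 44.7% and H3 to 62.9%, and left 8 windows above and 6 below 50%, of 21. The causes were not tested. Clopper-Pearson intervals put 20 windows above 50% in place of 21 and 13 below it as before, and Bonferroni adjustment changed no call among the 10 pairs. No paired analysis was possible because the counts are pooled over replicates and there is 1 group. Windows with under 100 unique reads (8 of 47) had wide intervals.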
